A study of Sus scrofa with 4 samples.

Results

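Phase II conjugation enzymes join a small polar group to a molecule, and their transcripts were followed here in the liver of pigs fed clenbuterol, a β2-adrenergic agonist. The members are the 74 probe sets, of 15383 in the deposited expression table, whose array target description names a glutathione S-transferase or glutathione transferase, a sulfotransferase, a glucuronosyltransferase, an N-acetyltransferase or a methyltransferase. A probe set is the group of short probes with which such an array reads a transcript. GNMT and BHMT were left out by the same rule, and the 74 probe sets carry 60 gene names. Because the rule goes by words, 29 of the 74 belong to families grouped here as small-molecule conjugation (glutathione transferases, cytosolic sulfotransferases, an arylamine N-acetyltransferase and methyltransferases of small molecules). The other 45 belong to enzymes that act mostly on glycans, proteins, nucleic acids or folate, with a few, such as SAT1 and GNPNAT1, that modify small molecules of the cell's own metabolism. No member was a UDP-glucuronosyltransferase, the family that attaches glucuronic acid to drugs and bilirubin, so that family was not analysed here.

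Liver RNA of 4 Chinese miniature pigs aged 4 months was hybridised to 4 Affymetrix porcine arrays, 1 array per pig. The 2 clenbuterol pigs, a male (replicate 1) and a female (replicate 2), received the drug in their diet for 8 weeks, 25 mg/kg 2 times daily for 4 weeks and then 50 mg/kg for 4 weeks. The 2 control pigs, again a male (replicate 1) and a female (replicate 2), received the same feeding without the drug. All 4 had been kept alike until 8 weeks of age, and the labels describe full sibs of 1 sex without settling which pigs were sibs. Each SD, SE and p-value below therefore rests on 2 pigs per group, and each SD describes the spread between these pigs alone. The SEs and p-values come from limma, which draws the variance of each probe set toward a value shared by all tested probe sets. An SE can therefore be larger or smaller than the spread of the arrays it stands beside.

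Conjugation usually follows an oxidation step and makes drugs, hormones and reactive compounds water-soluble enough for transporters to carry them into bile or blood. Glutathione transferases add glutathione to electrophiles, sulfotransferases add sulfate taken from PAPS (3′-phosphoadenosine 5′-phosphosulfate), N-acetyltransferases add an acetyl group from acetyl-CoA, and most methyltransferases use S-adenosylmethionine. Liver holds the cytosolic forms in abundance, while enzymes of the same names in the Golgi, nucleus and mitochondria modify the cell's own macromolecules.

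Values are deposited log2 GCRMA values, and a difference is clenbuterol minus control on that scale, so 1 means a 2-fold change. Of the 74 members, 68 reached the filter of 4 on at least 2 arrays and were tested, and none of them passed it through 1 group alone. The 6 that did not are probe sets for GSTA (LOC396850), GSTA4, GSTO2, GSTM5, METTL2 and DNMT3B, all under 3 on every array. By limma with Benjamini-Hochberg adjustment over all 11931 tested probe sets, 13 of the 68 members (19.1%) passed an adjusted p of 0.05, against 23.8% of all tested probe sets, so the members as a whole were not called more often than the array. Of the 13, 9 were higher with clenbuterol (13.2% of the members, against 11.4% of all tested) and 4 lower (5.88%, against 12.4%). After scaling the series intensities to the spiked-in control transcripts, 21 members were higher and 1 lower (30.9% and 1.47%), against 24.8% higher and 2.13% lower of all tested probe sets, so calls turned to higher over the whole array. In the series intensities as deposited 4 were higher and 3 lower. The median difference was 0.04 over the members and −0.03 over all tested probe sets. Among the tested members 2 differed by 2-fold or more, a GSTT1 probe set and a GNPNAT1 probe set. The share of all tested probe sets that did so was not counted, so nothing is read from that number. The same 2 of the 74 members were marked as changed in the authors' deposited table, against 691 of all 15383 probe sets.

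Enzymes that conjugate small molecules were taken apart as a group, a choice made after seeing the data. Among their 25 tested probe sets, 6 were called higher and 0 lower by limma. This is 24% higher, against 11.4% higher and 12.4% lower of all tested probe sets. At an unadjusted p under 0.05, 12 of the 25 read higher and 0 lower, against 18.1% higher and 21.2% lower of all tested probe sets. The median of the 25 differences was 0.12, with 19 above 0 and 6 below. The 6 called probe sets are GSTT1 (2 probe sets), GSTM1, MGST2, SULT1E1 and SULT1A1. In the series intensities 3 of these were called, and 1 with the replicate number as a block. The other enzymes gave 3 higher and 4 lower of 43 tested, with a median of 0.02. No test compared these groups of enzymes.

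**Figure D1:**
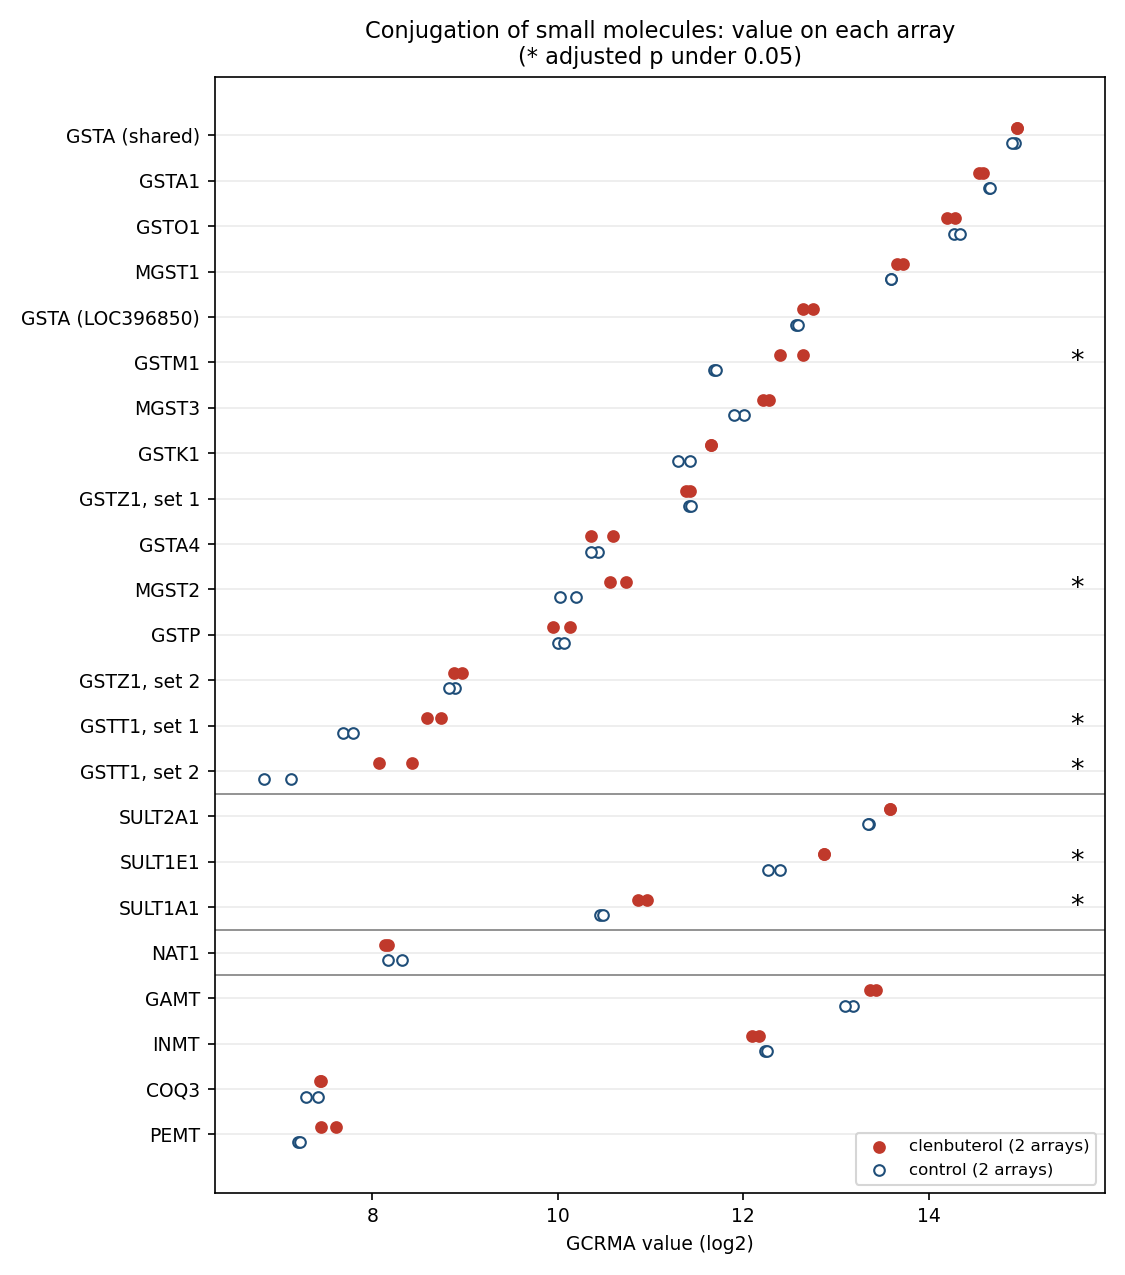
Log2 GCRMA value on each array for 23 of the 25 tested probe sets of small-molecule conjugation, with the 2 clenbuterol arrays as filled points above the 2 control arrays as open points; lines divide glutathione transferases, sulfotransferases, N-acetyltransferase and methyltransferases. In the 6 rows with an asterisk (adjusted p under 0.05) both filled points lie to the right of both open points, while the GSTA rows near 15 barely move; positions of different probe sets are not comparable levels.

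Glutathione transferases were the largest class of small-molecule conjugation, with 19 probe sets, of which 15 were tested and 4 rose. These are 26.7% of those tested, against 11.4% higher of all tested probe sets, with both GSTT1 probe sets among them. The theta class GSTT1, a cytosolic transferase that in humans acts on small halogenated compounds, had the largest change. The dimmer of its probe sets read 8.43 and 8.07 on the clenbuterol arrays, against 6.83 and 7.12 on the control arrays. The groups do not overlap, and the difference was 1.27 ± 0.17 (SE, n = 2 per group, limma adjusted p = 0.015). The brighter GSTT1 probe set read 8.74 and 8.59 with clenbuterol and 7.69 and 7.79 in control pigs, a difference of 0.93 ± 0.10 (limma adjusted p = 0.010). Both are described by the array as similar to human GSTT1 and carry the same deposited transcript title, so they may read 1 transcript and are not independent evidence. Leaving out the clenbuterol array headed p105f ended both calls, which left differences of 1.09 and 0.85.

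The mu class followed. The GSTM1 probe set, described by the array as similar to human GSTM1 and titled mu 2 by the depositors, read 12.64 and 12.39 with clenbuterol, against 11.69 and 11.71 in controls. Both clenbuterol arrays lay above both control arrays, by 0.82 ± 0.11 on average (limma adjusted p = 0.015), a call lost without p105f or without either control array. In humans mu class enzymes take up epoxides of polycyclic hydrocarbons, among other electrophiles. The microsomal MGST2, a membrane enzyme that can also make leukotriene C4, read 10.56 and 10.73 with clenbuterol and 10.03 and 10.20 in controls. Its difference was 0.53 ± 0.11 (limma adjusted p = 0.036), and it was not called in the series intensities or when any array was left out.

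The remaining 11 tested glutathione transferase probe sets did not pass, with differences of −0.08 to 0.29. The alpha class, the main glutathione transferases of hepatocyte cytosol, stayed close together across all arrays. The probe set shared by GSTA1 and LOC396850 read 14.95 and 14.95 with clenbuterol, against 14.93 and 14.90 in controls, and GSTA1 alone read 14.55 and 14.59, against 14.65 and 14.66. The highest mean of any tested probe set was 15.58, so these readings lie near the top of the scale, where an array may compress differences, and that was not tested. A probe set for LOC396850 alone differed by 0.12 ± 0.09, and GSTA4, which acts on the lipid peroxidation product 4-hydroxynonenal, by 0.08 ± 0.12. GSTZ1, the maleylacetoacetate isomerase of tyrosine breakdown, gave −0.02 ± 0.08 and 0.07 ± 0.08 on its pair of probe sets. GSTP, the class low in adult hepatocytes of several species, gave 0.00 ± 0.10.

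Just outside the threshold were GSTK1, a mitochondrial and peroxisomal transferase, and MGST3, a microsomal one. GSTK1 read 11.65 and 11.65 with clenbuterol, against 11.30 and 11.42 in controls (0.29 ± 0.09, limma adjusted p = 0.080). MGST3 read 12.28 and 12.21 with clenbuterol, against 12.01 and 11.90 in controls (0.29 ± 0.09, limma adjusted p = 0.082). In both, each clenbuterol array was above each control array, as in 30.8% of all tested probe sets. MGST1, the abundant microsomal form, and GSTO1, an omega class enzyme with a cysteine in its active site, differed by 0.10 ± 0.08 and −0.07 ± 0.09.

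Of the 3 cytosolic sulfotransferases 2 passed, both higher (66.7%, against 11.4% higher of all tested probe sets). All 3 read higher on both clenbuterol arrays than on either control array, as 30.8% of all tested probe sets did. SULT1E1, the estrogen sulfotransferase, which inactivates estradiol by sulfation, read 12.88 and 12.87 with clenbuterol, against 12.40 and 12.27 in controls. The difference was 0.54 ± 0.09 (limma adjusted p = 0.022), a 1.45-fold change. SULT1A1, a phenol sulfotransferase whose gene ID has the RefSeq symbol SULT1A3, read 10.96 and 10.86 with clenbuterol and 10.46 and 10.49 in controls, a difference of 0.44 ± 0.08 (limma adjusted p = 0.031). SULT2A1, the hydroxysteroid and bile acid sulfotransferase, read 13.58 and 13.58 with clenbuterol, against 13.36 and 13.35 in controls. Its difference of 0.23 ± 0.08 did not pass (limma adjusted p = 0.101). The SULT1E1 and SULT1A1 calls were both lost in the series intensities (differences of 0.46 and 0.35) and when any array was left out.

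Arylamine acetylation was represented by 1 probe set. NAT1, which acetylates arylamine and hydrazine drugs, read 8.14 and 8.16 with clenbuterol, against 8.17 and 8.32 in controls, a difference of −0.09 ± 0.09 (limma adjusted p = 0.496).

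Small-molecule methyltransferases gave 0 calls of 6 tested by limma, with 3 higher and 0 lower at an unadjusted p under 0.05, a level that 39.3% of all tested probe sets reached. GAMT, which makes creatine from guanidinoacetate, read 13.43 and 13.37 with clenbuterol and 13.18 and 13.10 in controls (0.26 ± 0.08, limma adjusted p = 0.092). PEMT, which methylates phosphatidylethanolamine to phosphatidylcholine in liver, read 7.61 and 7.44, against 7.20 and 7.22 in controls (0.32 ± 0.09, limma adjusted p = 0.078). In both genes the clenbuterol arrays lay above the control arrays, as in 30.8% of all tested probe sets, without the difference passing the test. INMT, which methylates indoles such as tryptamine, and COQ3, a methyltransferase of ubiquinone synthesis, differed by −0.12 ± 0.08 and 0.10 ± 0.09.

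**Figure D2:**
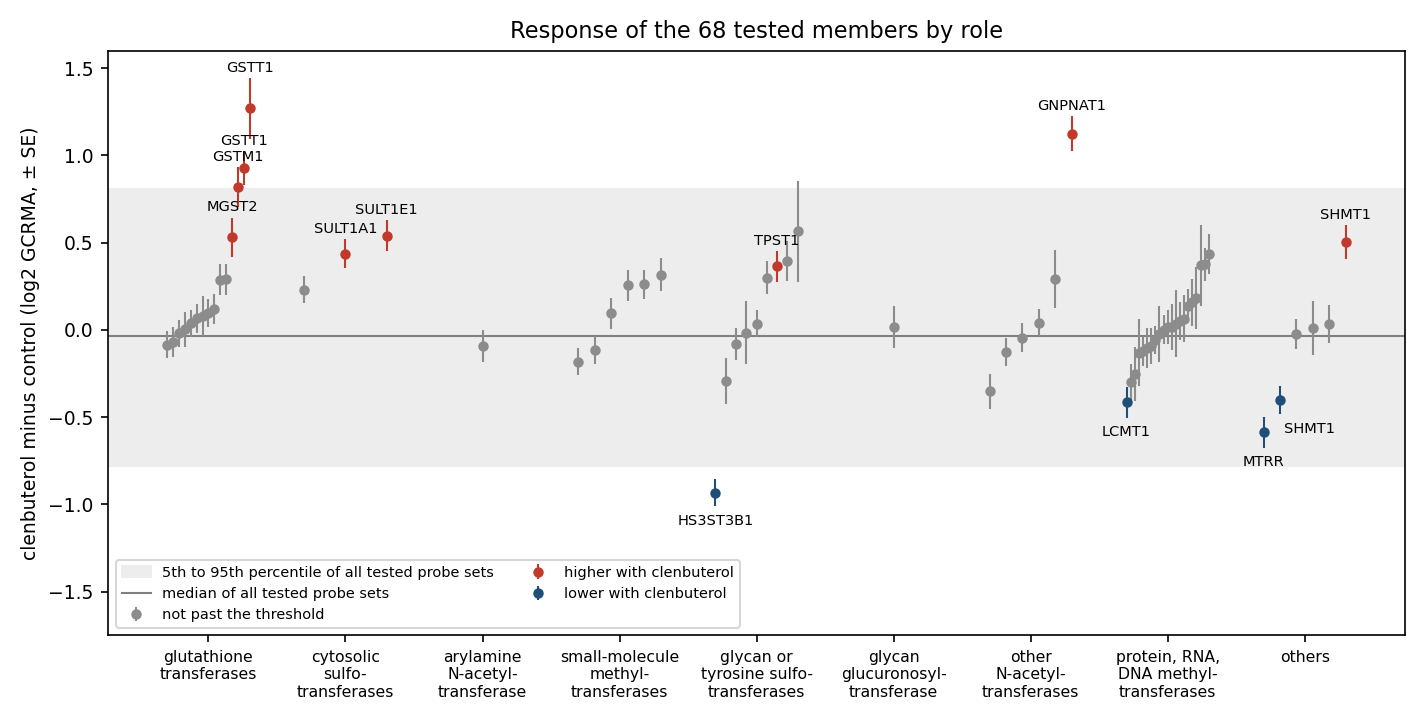
Clenbuterol minus control difference in log2 GCRMA value (vertical axis, with SE bars) for the 68 tested members by class of enzyme; the grey band holds the 5th to the 95th percentile of all 11931 tested probe sets. Called members are red (9 higher) or blue (4 lower); GSTT1, GSTM1, GNPNAT1 and HS3ST3B1 reach past the band, and the methyltransferases of protein, RNA or DNA gather around 0.

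Sulfotransferases of the Golgi modify glycans and tyrosines rather than drugs. Of their 9 tested probe sets 1 rose and 1 fell (11.1% each, against 11.4% higher and 12.4% lower of all tested probe sets). HS3ST3B1, which adds a 3-O-sulfate to heparan sulfate, read 6.31 and 6.32 on the clenbuterol arrays, against 7.27 and 7.23 on the control arrays. This was the largest decrease among the members and the replicates lay close together, with a difference of −0.93 ± 0.08 (limma adjusted p = 0.006). After spike scaling it was −0.44 and no longer passed. The deposited title of this probe set names a related 3-O-sulfotransferase, so which family member it reads is unsettled. TPST1, a protein-tyrosine sulfotransferase, read 9.41 and 9.30 with clenbuterol and 9.02 and 8.97 in controls (0.36 ± 0.09, limma adjusted p = 0.048), a call lost in the series intensities and when any array was left out. NDST2, which starts heparan sulfate modification by swapping N-acetyl for N-sulfate groups, differed by 0.40 ± 0.11 (limma adjusted p = 0.073). The remaining 6 probe sets, for HS2ST1, HS3ST1, CHST14 and GAL3ST1, ranged from −0.29 to 0.57. B3GAT3, the single glucuronosyltransferase found, completes the linker on which heparan and chondroitin sulfate are built, and differed by 0.02 ± 0.12.

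Other N-acetyltransferases gave 1 call in 6 tested probe sets, higher (16.7%, against 11.4% higher of all tested probe sets). The called probe set, listed here as GNPNAT1, read 11.18 and 11.26 with clenbuterol, against 10.09 ± 0.12 in controls (mean and SD of 2 arrays). Both clenbuterol arrays lay above both control arrays, with a difference of 1.12 ± 0.10 (limma adjusted p = 0.007). The array describes its target as highly similar to human GNPNAT1, which acetylates glucosamine-6-phosphate on the route to UDP-N-acetylglucosamine. The depositors' title and gene ID name C1R, a complement protease, so which transcript it reads is unsettled here. A dimmer probe set with the same pair of names read 7.87 and 8.08 with clenbuterol, against 7.88 and 7.49 in controls, and its difference of 0.29 ± 0.17 did not pass (limma adjusted p = 0.270). SAT1, the acetyltransferase that starts polyamine breakdown, differed by −0.13 ± 0.08. Subunits of the amino-terminal acetylation complexes differed by −0.35 ± 0.10 for NAA10 (limma adjusted p = 0.070), −0.04 ± 0.08 for NAA20 and 0.04 ± 0.08 for NAA35. The deposited title of the NAA10 probe set names tubulin alpha instead, so which transcript it reads is also unsettled.

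The methyltransferases of protein, RNA and DNA were the most numerous, with 23 probe sets of which 21 were tested, and 0 rose and 1 fell by limma, with 2 higher and 2 lower at an unadjusted p under 0.05 (39.3% of all tested probe sets reached that level). LCMT1, which methylates the catalytic subunit of protein phosphatase 2A, read 7.92 and 7.96 with clenbuterol, against 8.29 and 8.41 in controls on the brighter of its probe sets. The difference of −0.41 ± 0.09 (limma adjusted p = 0.037) turned to 0.07 after spike scaling and was not called there, in the series intensities or when any array was left out. The other LCMT1 probe set gave 0.00 ± 0.08. PCMT1, which repairs aged aspartyl residues, differed by 0.43 ± 0.11 on its brighter probe set and 0.02 ± 0.13 on the other (limma adjusted p = 0.059 and 0.944). RNMT, the mRNA cap methyltransferase, read 6.91 and 7.05 with clenbuterol, against 6.66 and 6.55 in controls (0.38 ± 0.10, limma adjusted p = 0.055). Maintenance and de novo DNA methyltransferases DNMT1 and DNMT3A differed by −0.12 ± 0.08 and 0.04 ± 0.19, and the repair enzyme MGMT by 0.05 ± 0.11.

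The last class joins folate and methionine-cycle enzymes whose names hold the searched words, and COMTD1, which is neither and differed by 0.01 ± 0.16. Of its 6 tested probe sets 1 rose and 2 fell (16.7% and 33.3%, against 11.4% higher and 12.4% lower of all tested probe sets). MTRR, the reductase that reactivates methionine synthase, read 8.07 and 7.98 with clenbuterol, against 8.65 and 8.57 in controls, a difference of −0.59 ± 0.09 (limma adjusted p = 0.018) that was −0.33 and not called after spike scaling. The call was also lost when any array was left out. Its deposited title names a nitric oxide synthase. SHMT1, the cytosolic serine hydroxymethyltransferase that feeds one-carbon units into folate, was called in opposite directions. Its dimmer probe set read 10.63 and 10.56 with clenbuterol, against 10.01 and 10.17 in controls (0.51 ± 0.10, limma adjusted p = 0.029). Its brighter probe set read 11.83 and 11.81 with clenbuterol, against 12.18 and 12.26 in controls (−0.40 ± 0.08, limma adjusted p = 0.034), and after spike scaling −0.07 and not called. Both calls were lost in the series intensities and when any array was left out, and no direction can be given for SHMT1 as a gene. The mitochondrial SHMT2 and AMT, a part of the glycine cleavage system, differed by −0.02 ± 0.08 and 0.03 ± 0.11.

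**Figure D3:**
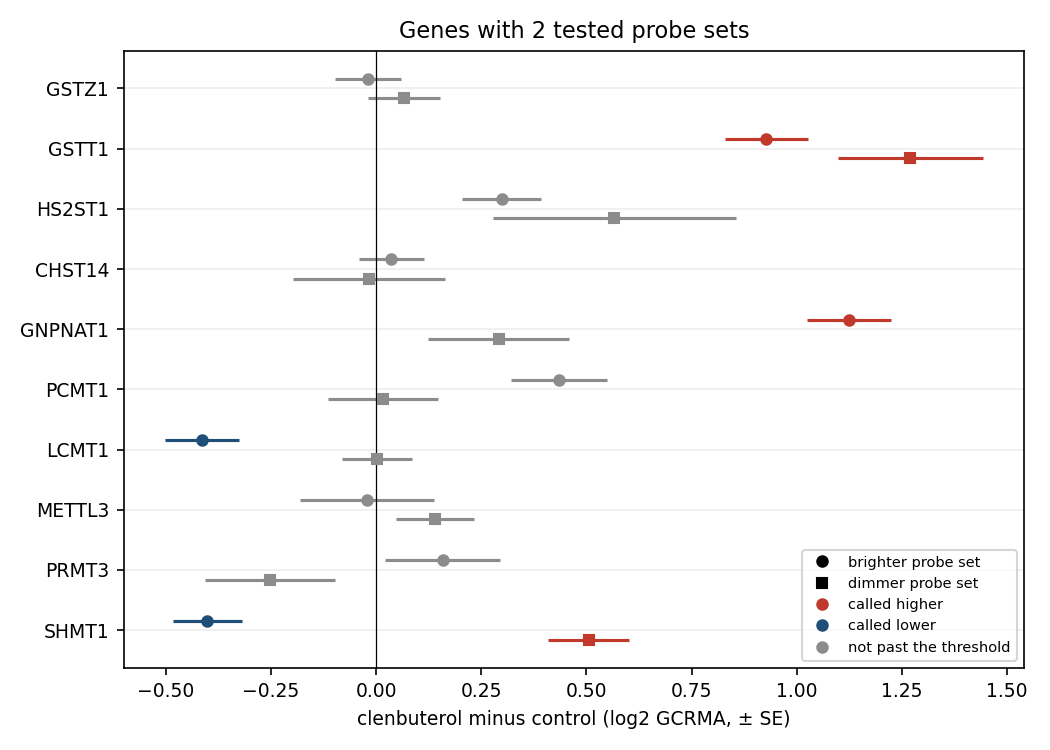
Clenbuterol minus control difference in log2 GCRMA value (horizontal axis, with SE bars) for 10 of the 11 genes with 2 tested probe sets, the brighter one as a circle above the dimmer one as a square. The GSTT1 pair lies together at 0.93 and 1.27, whereas the SHMT1 pair lies at −0.40 and 0.51.

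Genes with more than 1 probe set show how far a single reading can be taken. Of the 11 genes with 2 tested probe sets, 4 had the same sign on both (GSTT1, GNPNAT1, HS2ST1 and PCMT1) and 7 had opposite signs. Both probe sets were called for GSTT1 and SHMT1, and in the same direction for GSTT1. Probe sets of 1 gene can read different transcript ends or variants, and in the array's control transcripts the 3′ over 5′ signal gap was smaller in both clenbuterol arrays than in both control arrays for 7 of 10 pig control pairs. For GAPDH, for example, that gap was 1.03 and 1.28 (log2 intensity) with clenbuterol and 1.68 and 1.81 in control pigs. The part of this shift in the differences above was not tested.

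Whether males and females responded alike could be described only in the series intensities, whose columns carry the replicate number and hence the sex. In log2 intensity, the male pair and the female pair moved the same way in 43 of 68 members (63.2%), against 74.5% of all tested probe sets. All 13 called members moved the same way in both pairs, as did 96.8% of all called probe sets; the pairs are made of the arrays on which the calls rest, so this adds no support. On its dimmer probe set GSTT1 gave 1.34 (male pair) and 0.83 (female pair), and on the brighter one 0.88 (male) and 0.58 (female). GSTM1 gave 0.69 (male) and 0.55 (female), SULT1E1 0.37 and 0.55, HS3ST3B1 −0.85 and −0.77, and the brighter GNPNAT1 probe set 0.93 and 0.96, each in that order of sexes. The male pair showed the larger difference in GSTT1, GSTM1 and HS3ST3B1, and the female pair in SULT1E1. Male and female differences correlated across the 68 members with a Pearson r of 0.614 and a Spearman rho of 0.541, against a Pearson r of 0.717 over all tested probe sets. These correlations are descriptions across probe sets measured on the same 4 arrays.

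**Figure D4:**
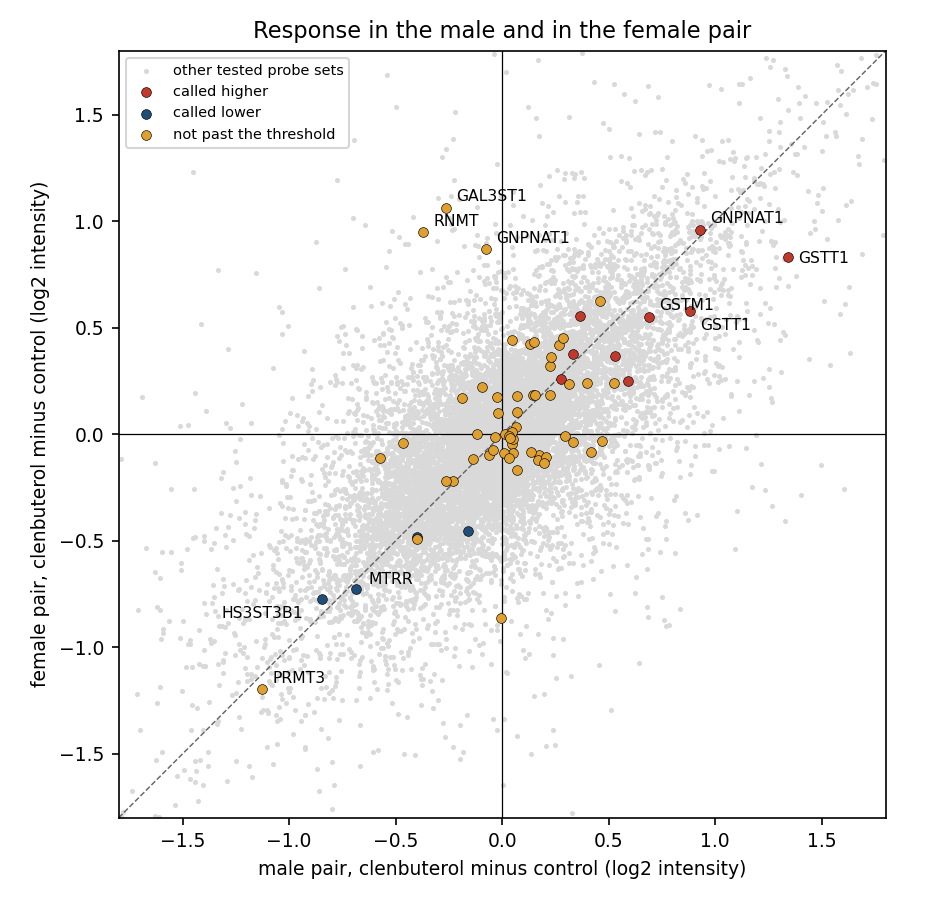
Clenbuterol minus control difference in log2 series intensity, male pair on the horizontal axis and female pair on the vertical axis, for the 68 tested members and, in grey, the other tested probe sets that fall within the axes. The 13 called members lie in the upper right or lower left quadrant, while GAL3ST1, RNMT and 1 GNPNAT1 probe set lie in the upper left.

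In those intensities 7 of the 68 members (10.3%) were called, against 11.1% of all tested probe sets. Of the 13 members called in GCRMA values 6 were among them (46.2%), against 39.3% of all probe sets called there, from the same 4 arrays. The 6 are both GSTT1 probe sets, GSTM1, HS3ST3B1, MTRR and the brighter GNPNAT1 probe set. The member that passed only in the intensities was the dimmer probe set of PRMT3, a protein arginine methyltransferase, with −1.13 for the males and −1.20 for the females. Its GCRMA readings lay close to the filter, at 3.96 and 4.29 with clenbuterol and 4.50 and 4.26 in controls, with a difference of −0.25 ± 0.15 that did not pass. The other PRMT3 probe set differed by 0.16 ± 0.14 in GCRMA values. The deposited titles of both name a related arginine methyltransferase.

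Sex itself gave 0 calls among the 68 members by limma on log2 intensity with treatment in the model, against 0.00838% of all tested probe sets. The lowest limma adjusted p was 0.655. At an unadjusted p under 0.05 were 1 HS2ST1 probe set (male minus female −0.58 ± 0.12), PRMT1 (−0.51 ± 0.12), DNMT3A (−0.34 ± 0.11) and the dim PRMT3 probe set (0.31 ± 0.11). The share of all tested probe sets at that level was not counted, so these 4 are not read as sex differences. No member differed by 2-fold or more between the sexes. SULT1E1, a sex-biased enzyme in rodent liver, differed by 0.12 ± 0.12 between male and female pigs.

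The cofactor, transport and regulator genes around conjugation were taken from a list of 45, of which 21 were found and 19 tested on their brightest probe set, with 4 higher and 1 lower, against 11.4% higher and 12.4% lower of all tested probe sets. On these probe sets the ABCG2, GSS, ACSS2 and GGT1 calls were lost in the series intensities (limma adjusted p = 0.052, 0.214, 0.061 and 0.256). Both ATP-driven exporters of conjugates that passed were higher. ABCC2, the canalicular exporter of glutathione and glucuronide conjugates, averaged 9.01 ± 0.01 with clenbuterol, against 8.05 ± 0.04 in controls (SD, n = 2 each; difference 0.96 ± 0.08, limma adjusted p = 0.006). ABCG2, which exports sulfate conjugates, read 8.84 and 8.54, against 7.88 and 7.57 in controls (0.97 ± 0.16, limma adjusted p = 0.023), although its dimmer probe set gave −0.29 ± 0.08 and was not called. ABCB1 differed by 0.91 ± 0.23 (limma adjusted p = 0.052).

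Cofactor supply was mixed. For glutathione, the synthetase GSS differed by 0.49 ± 0.12 and was called higher (limma adjusted p = 0.047), and GGT1, which degrades extracellular glutathione, was called lower by −0.74 ± 0.12 (limma adjusted p = 0.021), a difference that was 0.11 and not called after spike scaling. GCLM, a subunit of the rate-limiting ligase, GSR, which regenerates reduced glutathione, and CTH, which makes cysteine, did not pass. For acetyl-CoA, ACSS2 was called higher by 0.58 ± 0.10 (limma adjusted p = 0.026). The dimmer probe sets of GSS and ACSS2 were also called higher, by 1.36 ± 0.22 and 0.85 ± 0.09 (limma adjusted p = 0.022 and 0.009). Both kept the call in the series intensities (limma adjusted p = 0.016 and 0.031). The dimmer GSS probe set read close to the filter in controls, at 4.31 and 3.93. The PAPS synthases PAPSS1 and PAPSS2 differed by 0.06 ± 0.16 and 0.05 ± 0.08, UGP2, which makes UDP-glucose ahead of UDP-glucuronate, by 0.06 ± 0.08, and MAT2A, which makes S-adenosylmethionine, by −0.13 ± 0.11. None of these 4 was called by limma, and none was under 0.05 before adjustment. GUSB, the lysosomal β-glucuronidase that takes glucuronides apart, differed by 0.34 ± 0.08 on its brightest probe set (limma adjusted p = 0.053) and by 1.23 ± 0.13 on the other, which was called (limma adjusted p = 0.010).

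Markers of the cells in the tissue moved with the treatment. Each gene was counted on its brightest probe set. The 8 hepatocyte markers found were all tested and 2 were higher, CPS1 by 1.21 and TAT by 0.76, while ALB was at 15.30 with clenbuterol and 15.32 in controls. Their summed signal (log2 of the summed linear values) was 17.68 to 17.69 with clenbuterol and 17.63 to 17.64 in controls. Of 5 Kupffer cell and macrophage markers 4 were higher (12.60 on both clenbuterol arrays, against 12.08 to 12.11), and of 4 T and NK cell markers 2 were higher (9.10 to 9.20, against 8.36 to 8.59). Of 6 stellate cell and fibroblast markers 3 were higher and 1, RGS5, lower (11.71 to 11.76, against 11.29 to 11.33), and of 4 endothelial markers 2 were higher and 1, VWF, lower (10.45 to 10.47, against 10.31 to 10.34). Both erythroid markers were lower (15.37 to 15.45, against 15.78 to 15.84). Of 3 cholangiocyte markers 2, CLDN4 and GGT1, were lower (8.00 to 8.03, against 8.41 to 8.42), with KRT7 below the filter. The third, EPCAM, went the other way by 0.30 and was not called. Most of that summed signal is CLDN4, at 7.51 and 7.47 with clenbuterol and 8.01 and 8.01 in controls. On dimmer probe sets TAT gave 0.14, CD14 0.23 and COL1A2 0.35, none called, and COL1A1 gave −0.43, called lower. The dimmer HBA probe sets gave −1.82, called lower, and −0.29 and 0.86, not called. Over all lists 13 of 35 tested markers were higher and 6 lower, against 11.4% higher and 12.4% lower of all tested probe sets. Their part in the differences of the members was not tested, and in whole liver a change in the number of cells of a type cannot be told apart from a change in RNA per cell.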

How the data were processed

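Liver RNA of 4 pigs was read on 4 arrays. The authors made the deposited log2 values with GCRMA, as the submitters' processing notes name it, in a version not given in the sources used here. They cover 15383 probe sets, in columns that show the group but no replicate number. The series table, also deposited, holds 1 linear intensity per probe set and array for 24123 probe sets, with an unstated processing. The authors' deposited table adds a signed fold, read as a score, a p-value and a q-value, per the file headers, and a mark for probe sets chosen by both tools.

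Members were found by words in the array's target description, without regard to capitals (76 found, 2 left out). Gene names are those of that description, mostly by similarity to human; 24 members had a gene ID and 21 of these were named through RefSeq (Sscrofa11.1, names only). The deposited title named a gene of another kind for 7. For some others, such as HS3ST3B1, NDST2, CHST14, PRMT1 and PRMT3, it named a related enzyme of the same family. Members, roles and lists were chosen with earlier results of these data known.

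Probe sets at 4 or more (log2) on 2 of 4 arrays were tested in R 4.3.3 with limma 3.58.1 (lmFit, eBayes), group alone in the model, with Benjamini-Hochberg adjustment over 11931 probe sets. The comparison of sexes and of pairs used log2 series intensities. Named members were those past 0.05, the brightest of each small-molecule class, and all probe sets of small-molecule genes with several; others in the text were chosen after their values were seen. A gene that met the rule, with 2 probe sets, is counted among the members but not reported here. Alternatives were no filter, a filter at 6, series intensities, a replicate block, scaling to 27 spike probe sets (which moved the median difference by 0.37), an intensity trend, and leaving out each array. The fits were tested on simulated data. Precision is limited by the number of arrays. Male minus female differences in clenbuterol pigs and in control pigs correlated at 0.18 across all tested probe sets. The replicate number is also the sex here, so this value cannot settle a pairing. Tables were made with Python 3.11.15 and pandas 2.3.3.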

Additional observations from a re-analysis of the deposited data

Results flagged for a closer look

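For 4 probe sets the male and the female pair moved in opposite directions by at least 0.5 (log2 intensity) between them, and with 1 pig per sex and treatment this difference was not tested. GAL3ST1, a sulfotransferase of galactolipids, gave −0.26 (male pair) and 1.06 (female pair). RNMT gave −0.37 (male) and 0.95 (female), although its GCRMA values gave 0.38. The dimmer GNPNAT1 probe set gave −0.075 (male) and 0.87 (female). The brighter GSTZ1 probe set gave 0.42 (male) and −0.084 (female). In all, 25 of 68 tested members moved in opposite directions in the pairs.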

How the results depend on the processing

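The count of 13 called members was 11 without a filter and 16 with the stricter one. It was 7 in the series intensities, 22 after spike scaling, 22 with an intensity trend and 2 to 5 when 1 array was left out, lowest without the clenbuterol array headed p105f. Small-molecule conjugation alone, a choice made after seeing the data, gave 6. With the replicate number as a block, which the labels do not show to be a pairing, 5 members were called, against 1054 of all probe sets. Without a filter 2350 of all probe sets were called, with the stricter one 2987, after spike scaling 3213 and with an intensity trend 3345. Over all tested probe sets, 2843 were called, 1326 in the series intensities and 579 to 1213 when 1 array was left out. The brighter GNPNAT1 probe set kept its call under all 10 alternatives. The other 12 lost it under at least 1; HS3ST3B1 lost it only after spike scaling, and the dimmer GSTT1 probe set only without p105f. Sex gave 0 calls under every alternative run. The pairs moved alike in 43 members. After spike scaling, which adds about 0.37 to every difference and so turns signs by itself, it was 63 of 68 (92.6%), against 83.6% of all tested probe sets.

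Among the 23 probe sets chosen by the naming rule, signs turned for few. After spike scaling LCMT1 was 0.067, the brighter GSTZ1 probe set 0.54 and NAT1 0.33. Other members given in the text with a negative difference turned there as well, among them GSTA1 (0.29), GSTO1 (0.31), INMT (0.39) and SAT1 (0.40). In the series intensities, with or without the block, GSTZ1 was 0.17 on the brighter and −0.017 on the dimmer probe set, and GSTA4 was −0.0012. With 1 array left out the brighter GSTZ1 probe set ranged from −0.040 to 0.0020 and GSTA4 from −0.041 to 0.20. The causes were not tested. With 2 arrays per group, leaving 1 out assumes that the lone array varies like the other group.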
